A study of Mus musculus with 16 samples.

Results

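The Sprouty genes Spry1, Spry2 and Spry4 and the Spred genes Spred1, Spred2 and Spred3 encode a family of inhibitors of receptor tyrosine kinase signalling. They were chosen by family membership, with earlier results of these data known, and make up 6 of the 20972 genes with a named probe. All 6 were among the 15659 genes tested, for which at least 1 group had a clear signal over background on both its arrays. Each gene was read by its brightest probe, as log2 of the signal relative to the 75th percentile of its array. Spry3, the remaining Sprouty gene, was not well above background on any of the 16 arrays. It was not tested and is not among the 6.

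The RNA came from E14tg2a mouse embryonic stem cells grown in serum and LIF, all of which carried a c-Raf fusion protein that tamoxifen switches on and that then signals constitutively. Cells of the 30m, 1h, 2h, 4h, 8h and 24h groups first spent 24 hours in 250 nM of the FGF receptor inhibitor PD173074 and were then given 250 nM 4-hydroxytamoxifen (4OHT) for the named time with the inhibitor still there. The 0h group had the inhibitor for 24 hours and no 4OHT, and the DMSO group had vehicle only. Each of the 8 groups had 2 arrays, so their number limits the precision. The labels do not say whether replicates were separate cultures, and the p-values therefore rest on the spread among these arrays, which could be technical. Cells given 4OHT without the fusion or without the inhibitor were not analysed here.

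Sprouty and Spred proteins share a cysteine-rich carboxy-terminal domain that takes them to membranes. Sprouty proteins become tyrosine-phosphorylated after receptor activation, bind adaptors and ubiquitin ligases such as Grb2 and Cbl, and dampen signalling from receptors to Erk. Spred proteins bring neurofibromin, the product of Nf1, to the membrane, where it returns Ras to its inactive state. Several of these genes are themselves switched on by Erk signalling, which closes a negative feedback loop. In mouse embryonic stem cells, Fgf4 acting through FGF receptors is the main source of Erk activity.

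The promoters of 3 members are shown because they belong to members called higher at 4h, 8h and 24h with a probe well above background on all 16 arrays (Spry2 and Spred1) and to the member with the smallest 24h difference (Spred2). Of the 6 members, 5 matched the promoter table, all but Spry4. The windows are the 250 bases before the annotated start in RefSeq's table for GRCm38.p6, 5′ to 3′, and capitals mark GGAA or its complement TTCC, the core of the site bound by ETS factors, which act downstream of Erk.
Spry2 (chr14:105896820-105897069, minus strand): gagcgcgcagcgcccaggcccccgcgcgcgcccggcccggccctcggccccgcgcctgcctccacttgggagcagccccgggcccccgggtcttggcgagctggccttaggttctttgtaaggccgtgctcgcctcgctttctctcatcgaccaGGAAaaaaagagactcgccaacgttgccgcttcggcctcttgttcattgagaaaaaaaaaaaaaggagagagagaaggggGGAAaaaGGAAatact
Spred1 (chr2:117120821-117121070, plus strand): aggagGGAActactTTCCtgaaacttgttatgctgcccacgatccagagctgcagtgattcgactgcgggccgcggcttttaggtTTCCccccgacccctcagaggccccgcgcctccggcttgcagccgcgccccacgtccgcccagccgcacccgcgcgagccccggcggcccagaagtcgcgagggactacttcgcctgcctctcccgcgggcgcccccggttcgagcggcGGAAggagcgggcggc
Spred2 (chr11:19924192-19924441, plus strand): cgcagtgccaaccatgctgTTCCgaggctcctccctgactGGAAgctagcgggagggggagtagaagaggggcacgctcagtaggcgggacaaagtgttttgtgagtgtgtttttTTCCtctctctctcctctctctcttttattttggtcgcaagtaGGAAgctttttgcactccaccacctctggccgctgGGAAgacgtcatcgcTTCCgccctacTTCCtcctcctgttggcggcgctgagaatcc
The core was found 3 times in the Spry2 window, 4 times in that of Spred1 and 7 times in that of Spred2, and 1 time each in those of Spry1 and Spred3. It is common by its shortness: 93.45% of 32851 promoters of this length held it on either strand. The longer form CGGAAG, whose matches overlap those of the core, stood in 13.59% of promoters and had 1 match each in Spred1 and Spred2 and 0 in the other 3 members with a sequence. The AP-1 site TGANTCA, the cAMP response site TGACGTCA and the SRF CArG box, found in 6.75%, 1.55% and 1.47% of promoters, had 0 matches in these 5 windows on either strand.

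For 8 of the 16 arrays, the authors' value table and the attachment of the scanner files name different samples. The column headings of the value table were followed, in which slide 1 holds replicate 1 of every group and slide 2 holds replicate 2. With samples taken from the scanner file attachments, Spred3 was not among the genes tested, 0 of the other 5 passed in any comparison, and the standard error of the Spry4 changes was 2.49 in place of 0.38 on the log2 scale. Between 54.9% and 67.2% of probes were well above background, with slide 1 at 54.9% to 60.0% and slide 2 at 61.5% to 67.2%, and replicates correlated at 0.982 to 0.990 across genes. All 8 stem cell markers examined, Pou5f1, Sox2 and Nanog among them, were well above background on all 16 arrays.

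Under the inhibitor alone, all 6 genes lay lower than under vehicle, and Spry4 and Spred3 passed the test. Spry4, a Sprouty that also binds the kinase Tesk1, had log2 levels of -2.50 and -2.97 on the 0h arrays, against 0.26 and 1.06 on the DMSO arrays. Both 0h arrays lay far below both DMSO arrays, and Spry4 fell by 3.39 ± 0.38 (log2, SE, n = 2 each), which is 10.5-fold lower (limma adjusted p = 0.00328). The difference was -2.76 on slide 1 and -4.03 on slide 2. Spred3, the Spred whose KIT-binding region is not functional, had log2 levels of -6.35 and -6.22 on the 0h arrays, against -3.94 and -3.82 on the DMSO arrays. Its probe was well above background on both DMSO arrays and on neither 0h array. Its 0h level is therefore only a bound, and Spred3 was at least 2.47-fold lower (adjusted p = 0.00356). Bounds of this kind set the mean of the brighter group against the dimmest reliable signal of the arrays where the probe was not well above background. The p-values printed beside bounds are those of limma on the measured values (-2.40 here) and do not test the bound. In the alternative that joins normexp background correction, an offset of 50 and quantile normalization, the Spred3 difference was -0.39 on the log2 scale and did not pass (limma adjusted p = 0.0626). The parts of this alternative were not tested apart.

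The other 4 members were also lower on both 0h arrays than on either DMSO array. Spry1, which restrains Ret signalling in the developing kidney, had log2 levels of 2.11 and 1.12 on the 0h arrays, against 2.65 and 2.62 on the DMSO arrays. Spry2, which binds the ubiquitin ligase Cbl, had 0.083 and -0.43 at 0h, against 1.58 and 1.25 with DMSO. Spred1, whose loss in people causes Legius syndrome, had 1.03 and 0.039 at 0h, against 1.86 and 1.90 with DMSO. In these 3 genes the 0h replicates lay far apart, and the differences did not pass: -1.02 ± 0.43 for Spry1 (adjusted p = 0.245), -1.59 ± 0.42 for Spry2 (0.0698) and -1.34 ± 0.49 for Spred1 (0.185). Spred2, a broadly expressed inhibitor of the Ras pathway, had 0.18 and -0.13 at 0h, against 0.50 and 0.33 with DMSO, a difference of -0.39 ± 0.14 (adjusted p = 0.160).

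Thus 2 of the 6 members were called lower, where 1.28% of all genes were. Of these, only Spry4 was well above background in both groups. Spred3 was tested only through groups where its probe was well above background, and 0h was not among them. Its calls, here and in the later counts of members, are therefore not independent of how genes were chosen for testing. With the replicate number, which is also the slide, as a block, 5 of 6 were called lower, where 6.7% of all genes were: Spry1 (adjusted p = 0.0148), Spry2 (0.000447) and Spred1 (0.00357) joined. No overlap between the groups, with 0h lower, was seen in 6 of 6 members and in 23.7% of all genes. Separation of 2 arrays from 2 is thus common, and where it is mentioned for other comparisons it is a description, not a test. The median difference was -1.47 over the members and -0.01 over all genes, with Spred3 at its measured value (-1.32 with Spred3 at its bound). In RNA from whole cultures, fewer cells expressing a gene and less of its RNA in each cell cannot be told apart.

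**Figure D1:**
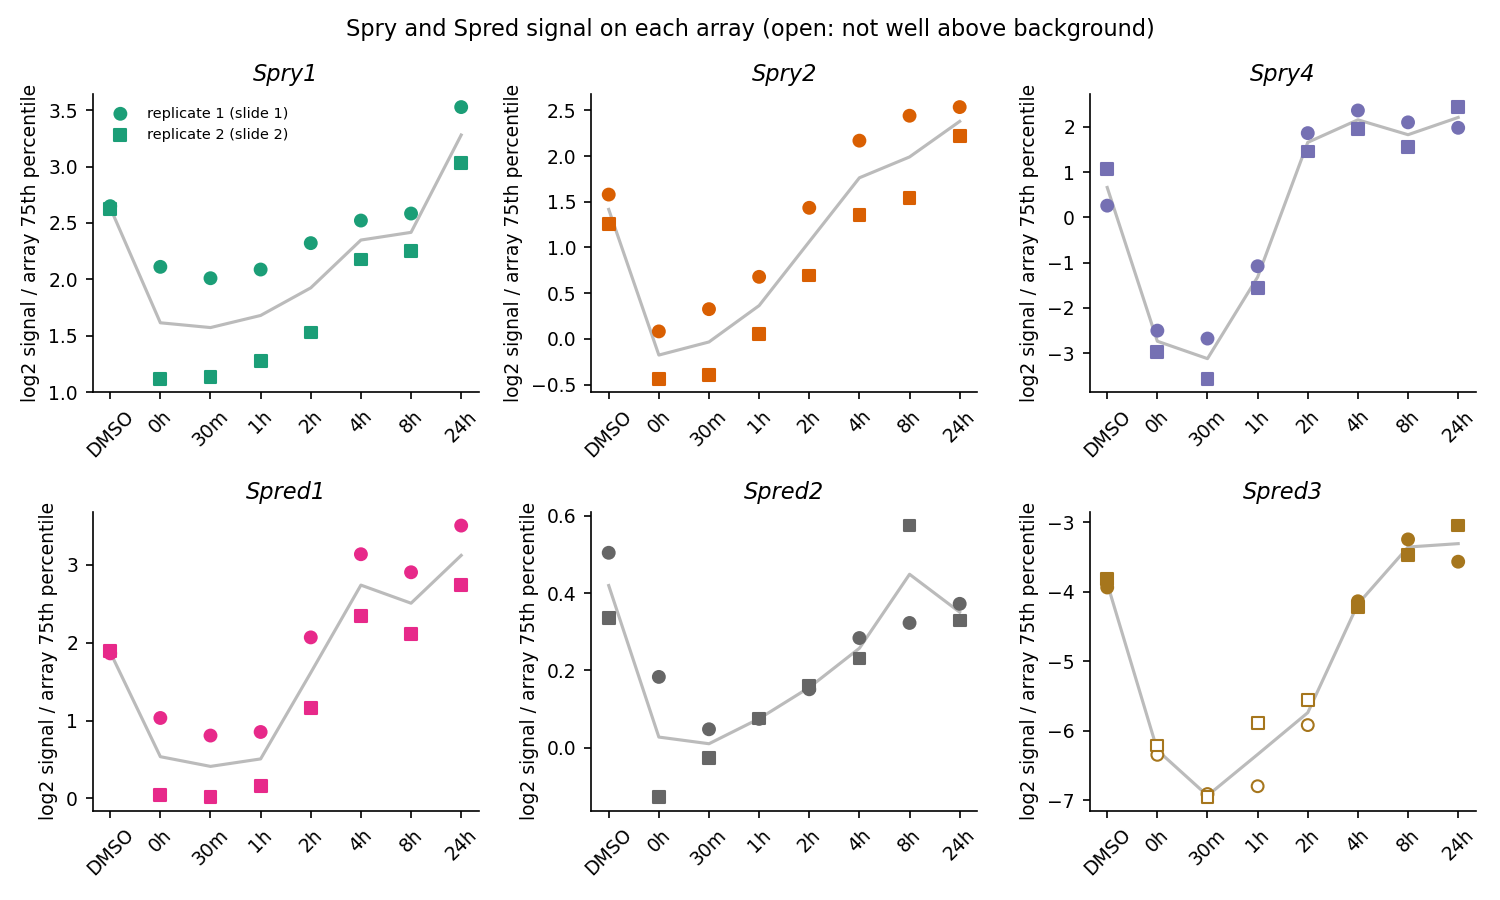
Log2 signal relative to the array's 75th percentile for each member (vertical axes) on each of the 16 arrays, by group (horizontal axes), with replicates 1 and 2 as separate symbols and open symbols where the probe was not well above background. Spry4 lies between -3.56 and -1.08 at 0h to 1h and between 1.45 and 2.43 from 2h on, and Spred3 has open symbols on all 8 arrays of 0h to 2h.

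Within the first hour of stimulation no member passed the test. Spry4 had log2 levels of -2.68 and -3.56 at 30m and of -1.08 and -1.56 at 1h, so that both 1h arrays lay above both 0h arrays. The 1h difference from 0h was 1.42 ± 0.38, which did not pass over all genes (unadjusted p = 0.00368, adjusted p = 1.00), and ranked 12 from the highest among 15659 genes. Spry2 had 0.33 and -0.39 at 30m and 0.68 and 0.051 at 1h, which overlaps the 0h arrays. Spry1 and Spred1 also overlapped their 0h levels at both times. Across all genes limma called 0 genes at 30m (96 at an unadjusted p under 0.05) and 0 at 1h (345 at an unadjusted p under 0.05). With the replicate block 0 genes were called at 30m and 3 at 1h, which is 0.0192% of all genes, and none of the 3 was a member.

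At 2 hours Spry4 rose and was the only member called. Its log2 levels were 1.86 and 1.45 on the 2h arrays, against -2.50 and -2.97 on the 0h arrays. Both 2h arrays thus lay above the 0h arrays and above both DMSO arrays. The change of 4.39 ± 0.38 was a 21.0-fold rise (adjusted p = 0.00446), with 4.36 on slide 1 and 4.42 on slide 2, and ranked 4 from the highest among 15659 genes. In this comparison 0.102% of all genes were called higher.

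The other members had smaller differences at 2h. Spry2 had log2 levels of 1.43 and 0.69 at 2h, against 0.083 and -0.43 at 0h. Its difference of 1.24 ± 0.42 missed the threshold (adjusted p = 0.638) and passed with the replicate block (0.00935), where 2 of 6 members and 0.377% of all genes were called higher. Spred1 had 2.07 and 1.16 at 2h, against 1.03 and 0.039 at 0h, a difference of 1.08 ± 0.49 (adjusted p = 0.816). Spry1 (0.31 ± 0.43) and Spred2 (0.13 ± 0.14) differed by less than their standard errors, and the Spred3 probe was not well above background at either time.

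From 4 hours on, Spry2, Spred1 and Spred3 were called as well. Spry2 had log2 levels of 2.17 and 1.36 at 4h and 2.44 and 1.54 at 8h, all above both 0h arrays. It was 3.83-fold higher at 4h (1.94 ± 0.42, adjusted p = 0.0382) and 4.49-fold higher at 8h (2.17 ± 0.42, adjusted p = 0.0173) than at 0h. Spred1 had 3.14 and 2.34 at 4h and 2.91 and 2.11 at 8h, likewise above both 0h arrays. It was 4.61-fold higher at 4h (adjusted p = 0.0426) and 3.92-fold higher at 8h (adjusted p = 0.0424), with a standard error of 0.49 on the log2 scale.

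Spred3 returned above background at 4h, with log2 levels of -4.14 and -4.22 at 4h and -3.25 and -3.47 at 8h. Set against its 0h bound, Spred3 was higher by at least 2.01-fold at 4h (adjusted p = 0.00595) and by at least 3.55-fold at 8h (0.000487). Spry4 had 2.36 and 1.95 at 4h and 2.10 and 1.55 at 8h. These arrays were close to those of 2h, and Spry4 was 29.6-fold higher at 4h (adjusted p = 0.0005) and 23.6-fold higher at 8h (adjusted p = 0.000328) than at 0h.

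Spry1 and Spred2 did not pass at 4h or 8h without the block. Spry1 had log2 levels of 2.52 and 2.18 at 4h and 2.58 and 2.25 at 8h. Its differences were 0.73 ± 0.43 (adjusted p = 0.397, with the block 0.0491) and 0.80 ± 0.43 (0.314, with the block 0.0302). Spred2 had 0.28 and 0.23 at 4h and 0.32 and 0.57 at 8h, and its differences were 0.23 ± 0.14 (adjusted p = 0.406) and 0.42 ± 0.14 (0.0950, with the block 0.0374). In all, 4 of 6 members were called higher at 4h, where 1.49% of all genes were, and 4 of 6 at 8h, where 3.12% were. Spred3 is included at both times. With the block these counts were 5 and 6 members, against 7.75% and 8.44% of all genes.

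In the fit without the block, the Spry2 and Spred1 calls at 4h and 8h depended on single arrays. Within slides 1 and 2, Spry2 differed from 0h by 2.08 and 1.79 at 4h and by 2.36 and 1.97 at 8h. Spred1 differed by 2.10 and 2.31 at 4h and by 1.87 and 2.07 at 8h. With the block, limma called Spry2 (adjusted p = 0.000202 at 4h, 6.26e-05 at 8h) and Spred1 (0.000516 and 0.000441). Without 0h replicate 1, 0h replicate 2 or 4h replicate 1, the members called at 4h numbered 1, 2 and 1, where 0.204%, 0.345% and 0.198% of all genes were called higher. Without 0h replicate 1, 0h replicate 2 or 8h replicate 1, those called at 8h numbered 2 in each case, where 0.932%, 1.32% and 0.741% of all genes were. Calls thus became fewer over all genes too. Spry4 stayed called in every one of these fits, while Spred3 lost its 4h call without 0h replicate 1 (adjusted p = 0.0584) or 4h replicate 1 (0.0657), and with normexp (0.36 on the log2 scale, 0.0847). Centring on the array median took the Spry2 and Spred1 calls at both times, with adjusted p of 0.178 and 0.165 at 4h and of 0.0620 and 0.132 at 8h. With this centring 0.441% of all genes were called higher at 4h and 1.6% at 8h.

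At 24 hours 5 of 6 members, Spred3 among them, were called higher than at 0h, where 10.8% of all genes were. Spry1 had log2 levels of 3.53 and 3.03 at 24h, against 2.11 and 1.12 at 0h. Its rise of 1.66 ± 0.43, or 3.17-fold, passed the test (adjusted p = 0.0178). The call was lost without 24h replicate 1 (1.42), without 0h replicate 2 (1.17), or when arrays were centred on their median (1.57, adjusted p = 0.0965). Calls over all genes became fewer in each of these fits too, with 5.09% called higher after median centring.

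Spry2 had 2.53 and 2.22 at 24h, and Spred1 had 3.51 and 2.74. Both genes thus lay above their 0h arrays and above their DMSO arrays. Spry2 was 5.87-fold higher than at 0h (2.55 ± 0.42, adjusted p = 0.00199) and Spred1 was 6.01-fold higher (2.59 ± 0.49, adjusted p = 0.00426). Spry4 had 1.98 and 2.43 at 24h, a 30.7-fold rise (4.94 ± 0.38, adjusted p = 5.11e-05). Spred3 had -3.57 and -3.05 at 24h and was higher by at least 3.68-fold (adjusted p = 0.000129). With normexp, its offset of 50 and quantile normalization together, the Spred3 rise was 0.66 on the log2 scale.

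Spred2 had log2 levels of 0.37 and 0.33 at 24h, against 0.18 and -0.13 at 0h. Its difference of 0.32 ± 0.14 did not pass (adjusted p = 0.117), and the 95% interval of the difference ran from 0.02 to 0.62. The median difference at 24h was 2.57 over the 6 members, and 2.22 with Spred3 at its bound, where that over all genes was -0.01.

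**Figure D2:**
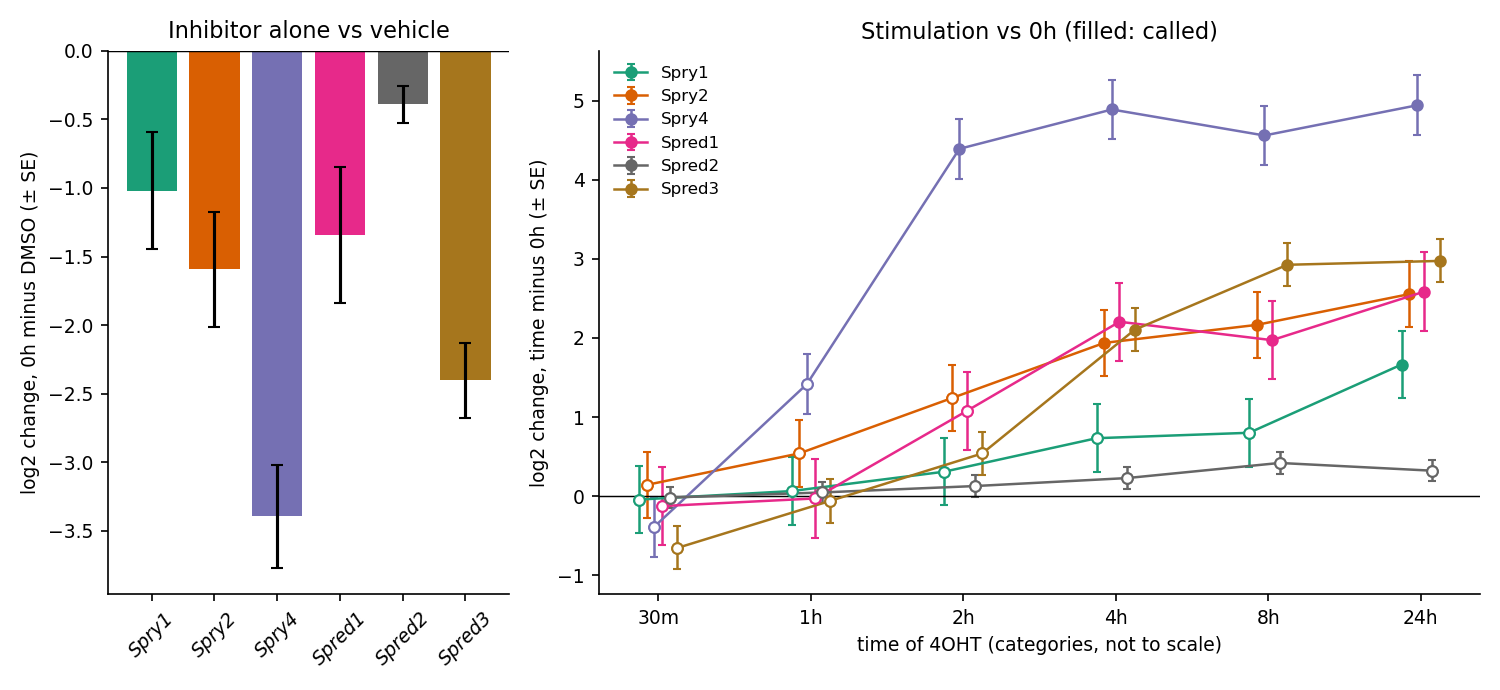
Left, bars give the log2 difference of each member, 0h minus DMSO, and right, points give the log2 change of each time of 4OHT minus 0h, with standard errors and filled points where limma called the change. Spry4 reaches 4.39 at 2h while Spry2 and Spred1 stand at 1.24 and 1.08, Spred2 stays below 0.5 throughout, and Spred3 is drawn at its measured value although its 0h to 2h levels are only bounds.

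The members differed in when they reached their 24h level. As a share of its own 24h change on the log2 scale, Spry4 stood at 28.7% at 1h, 88.9% at 2h and 98.9% at 4h. Spry2 stood at 21.2%, 48.5% and 75.9% at these times. Spred1 stood at 41.7% at 2h and 85.2% at 4h, and Spry1 at 18.6% and 44.1%. These shares are descriptions, since the times of different genes were not tested against each other.

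Over the 5 steps between neighbouring times, limma called 0 of 30 member changes. Of all genes, 0% were called at 1h over 30m and at 2h over 1h, 0.00639% at 4h over 2h, 1.14% at 8h over 4h and 8.84% at 24h over 8h. The largest member change was Spry4 from 1h to 2h, with a difference of 2.97 ± 0.38 at 2h over 1h (adjusted p = 0.0627). With the replicate block this step was called (adjusted p = 0.0247, where 0.083% of all genes were called higher). The block also called Spred3 at 4h over 2h, at least 1.67-fold higher (adjusted p = 0.0295, 0.428% of all genes), and Spry1 at 24h over 8h, by 0.86 ± 0.43 in the fit without the block (0.0205 with it, 12.7% of all genes). A moderated F test over 0h to 24h called Spry2, Spry4, Spred1 and Spred3, which is 4 of 6 members where 21.3% of all genes were called. Spry1 (adjusted p = 0.0839) and Spred2 (0.158) missed its threshold. With the block Spry1 passed (0.00185), and 45.6% of all genes did.

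Set against DMSO, 7 of 36 member differences were called and 17 with the replicate block. Spry4 was lower than with DMSO at 30m (-3.78 ± 0.38, adjusted p = 0.0019) and at 1h (-1.98 ± 0.38, 0.0217). It was higher at 4h (1.49 ± 0.38, 0.0383) and at 24h (1.55 ± 0.38, 0.0268), and all 4 of those arrays lay above both DMSO arrays. Spred3 was lower than with DMSO at 30m, 1h and 2h, by at least 2.03-fold, 1.78-fold and 2.06-fold, and it was not called at 4h, 8h or 24h. Of all genes, 1.53%, 1.8% and 2.1% were called lower at 30m, 1h and 2h, and 4.12%, 3.37% and 6.56% were called higher at 4h, 8h and 24h. With the block, 5, 5 and 1 members were called lower at 30m, 1h and 2h, against 7.67%, 7.54% and 7.8% of all genes, and 2, 1 and 3 members were called higher at 4h, 8h and 24h, against 11.7%, 8.37% and 12.5%. The Spry4 calls at 1h, 4h and 24h were each lost in 3 of the 4 fits that left out 1 array of the comparison, and the Spred3 call at 2h was lost without 2h replicate 1 (adjusted p = 0.0544). At 24h the block added Spry2 (0.96 above DMSO, adjusted p = 0.0024) and Spred1 (1.24 above, 0.0030). These comparisons share the DMSO arrays with that of 0h against DMSO.

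**Figure D3:**
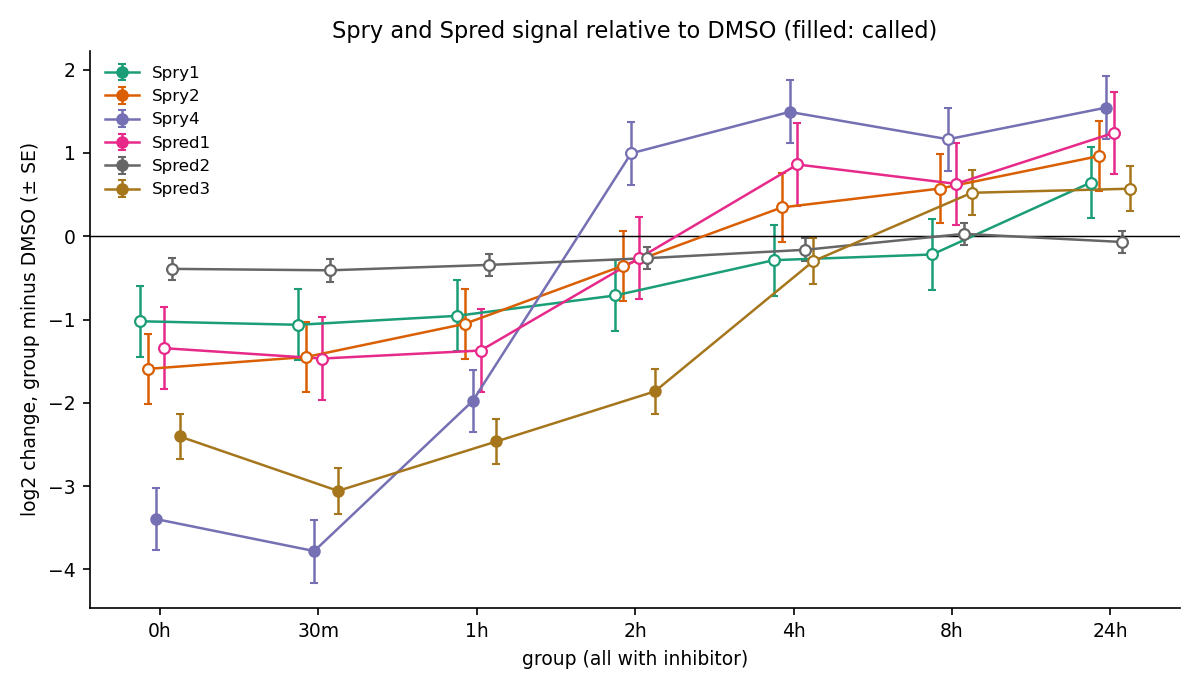
Log2 difference from DMSO of each member (vertical axis, with standard errors) in the 0h group and at each time of 4OHT (horizontal axis), filled where limma called it. Spry4 stands at -1.98 at 1h, above 0 at 2h and at 1.55 at 24h.

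Ordered by group mean from low to high, Spry4 ran 30m, 0h, 1h, DMSO, 2h, 8h, 4h and 24h. Spry2 ran 0h, 30m, 1h, 2h, DMSO, 4h, 8h and 24h, and Spry1 ran 30m, 0h, 1h, 2h, 4h, 8h, DMSO and 24h. In Spred1 the order was 30m, 1h, 0h, 2h, DMSO, 8h, 4h and 24h, with 0h, 30m and 1h the lowest groups in all 4 of these genes. In Spred3 the 0h, 30m, 1h and 2h groups, not well above background, have no order among themselves and lay below 4h, DMSO, 8h and 24h, in that order. These 5 genes had their highest mean at 24h. Spred2 ran 30m, 0h, 1h, 2h, 4h, 24h, DMSO and 8h. Over all 6 orders, the only neighbouring groups that limma told apart were DMSO over 1h in Spry4 (adjusted p = 0.0217), and the block added 4h over 2h in Spred3.

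Replicate 1 lay above replicate 2 in 8 of 8 groups for Spry1 and Spry2, in 7 for Spred1, in 6 for Spry4, in 5 for Spred2 and in 3 for Spred3. The median gap between the replicates was 0.64 for Spry1, 0.67 for Spry2 and 0.79 for Spred1 on the log2 scale, against 0.05 for Spred2. For Spry1 the gap was 0.03 with DMSO and 0.99 at 0h, and for Spred1 it was -0.03 with DMSO and 0.99 at 0h, so the gap was not the same in all groups. Spry4 had -0.80 with DMSO and 0.47 at 0h.

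**Figure D4:**
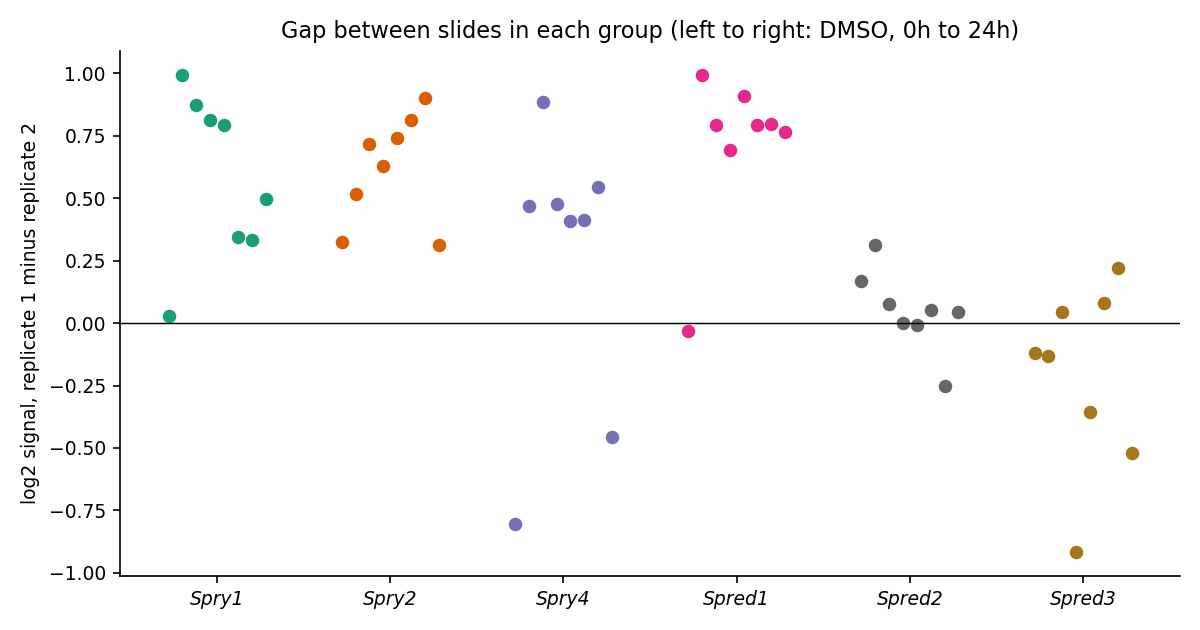
Log2 signal of replicate 1 (slide 1) minus replicate 2 (slide 2) for each member, with 1 point for each of the 8 groups. The medians are 0.64 for Spry1, 0.67 for Spry2, 0.44 for Spry4, 0.79 for Spred1, 0.05 for Spred2 and -0.13 for Spred3.

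Across the 16 arrays, which share slides and groups, Pearson correlations between members ran between 0.703 for Spry1 with Spry4 and 0.973 for Spry2 with Spred1. The genes with the pattern most like that of Spry4 were Myc, a growth-promoting transcription factor (r = 0.960), Slc39a14, a metal ion transporter (0.959), and Dusp4, a nuclear phosphatase of Erk (0.953). Jmjd1c, of the family of histone demethylases, stood first for both Spry2 (0.979) and Spred1 (0.983). Next came Tiparp (0.978) and Tns3 (0.975) for Spry2, and Jarid2, a partner of Polycomb repressive complex 2 (0.981), and Noct (0.976) for Spred1. Spry1 was closest to Tcf15, a transcription factor (0.976), Spred3 to Pon2 (0.958) and Spred2 to the Wnt receptor gene Fzd7 (0.904).

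Other feedback inhibitors of receptor and Erk signalling moved in both directions. Of 13 listed, 12 were tested. Against 0h, 2 were called higher at 2h, 5 at 4h, 5 higher and 2 lower at 8h, and 6 higher and 2 lower at 24h. The shares of all genes called higher at these 4 times were 0.102%, 1.49%, 3.12% and 10.8%. Phlda1, which restrains receptor signalling, had log2 levels of 5.74 and 4.77 at 24h, against -0.64 and -1.18 at 0h (6.16 ± 0.47). Dusp4 had 4.12 and 3.14 at 24h, against -1.41 and -2.67 at 0h (5.67 ± 0.71), and Dusp2 (5.02 ± 0.30) and Dusp6 (3.97 ± 0.59), also phosphatases of Erk, rose too. In all 4 genes both 24h arrays lay above both 0h arrays. Lrig3 (-2.53 ± 0.24) and Lrig1 (-1.19), membrane proteins that regulate growth factor receptors, fell. Under the inhibitor alone Dusp2 was lower than with DMSO (-1.65 ± 0.30) and Lrig3 was higher (1.19 ± 0.24). Of all genes, 3.53% were called lower at 8h and 12.9% at 24h. The median change of the list at 24h was 0.53, and that of all genes was -0.01.

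Among 11 tested binding partners and modifiers of the Sprouty and Spred proteins, 0 were called between 0h and DMSO or at 30m to 8h against 0h. The share of all genes called there was also low, at 0% to 3.12% called higher and 0% to 3.53% called lower. In these comparisons 0 to 3 of them had an unadjusted p under 0.05, and at most 2 were called with the block. At 24h Siah2, a ubiquitin ligase of Spry2, was higher (1.80 ± 0.26) and Cblb was lower (-0.79 ± 0.15). Nf1 had a 24h difference of -0.01 ± 0.16 and Grb2 one of -0.04 ± 0.11, and neither passed. The pathway tiers from Fgf4 and the FGF receptors to Erk, 18 genes, had 3 called higher and 2 lower at 24h, shares close to the 10.8% and 12.9% of all genes called higher and lower. Fgfr4 had log2 levels of 4.62 and 3.74 at 24h, against -1.46 and -1.86 at 0h (5.84 ± 0.37), while Fgf4 (-2.08) and Fgfr2 (-1.04) fell. Braf (1.12) and Sos2 (0.93) rose.

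**Figure D5:**
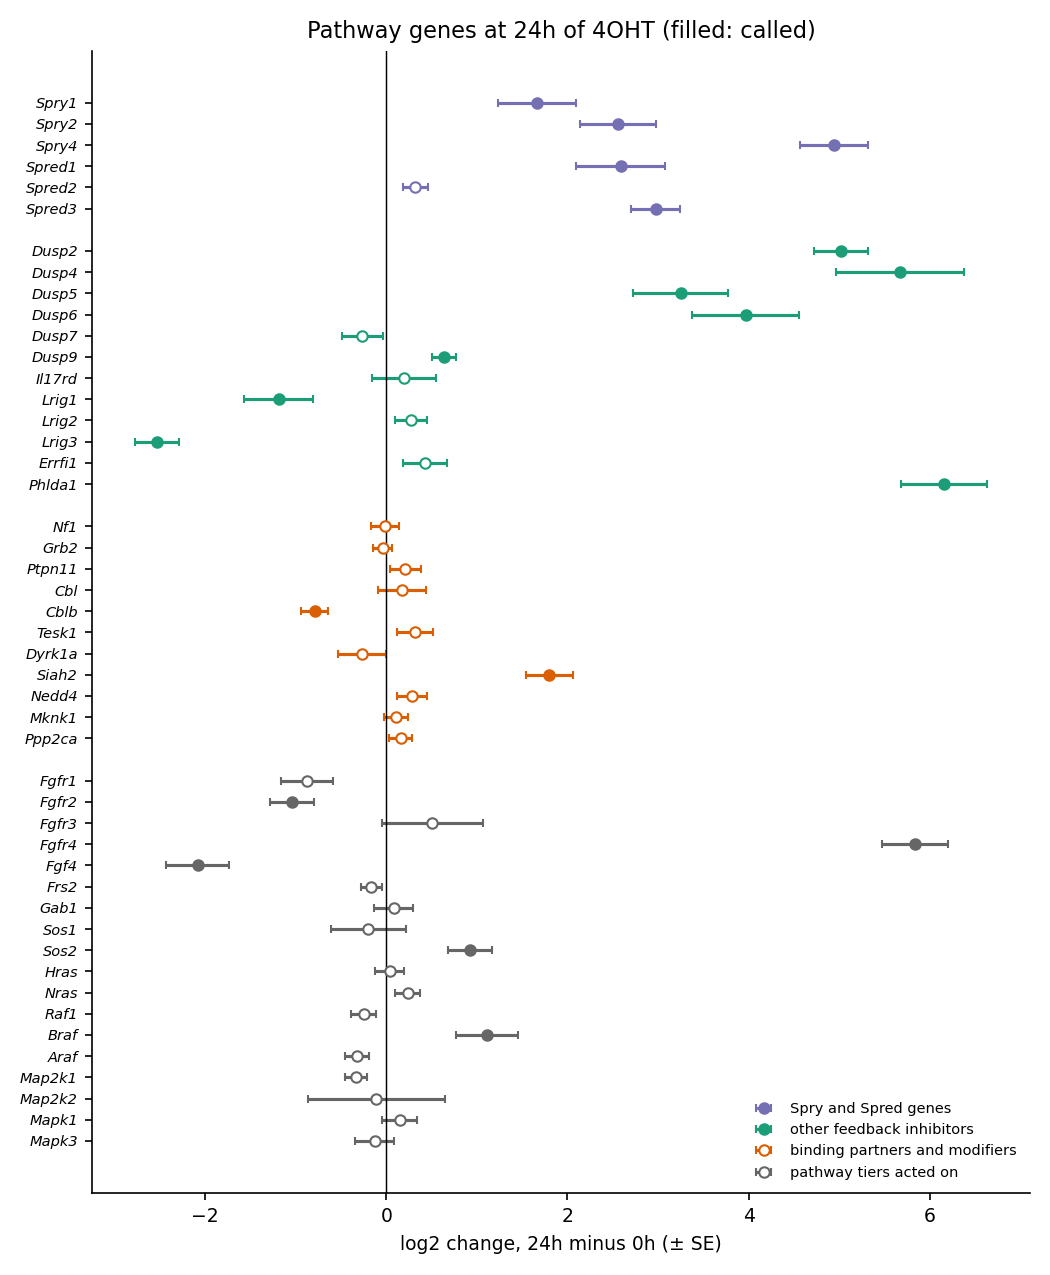
Log2 change at 24h of 4OHT minus 0h (horizontal axis, with standard errors) for the members and for the listed feedback inhibitors, partners and pathway tiers (1 line per gene), filled where limma called the change. Phlda1, Fgfr4, Dusp4 and Dusp2 lie beyond Spry4 at 4.94, and Lrig3 lies lowest among the feedback inhibitors at -2.53.

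Markers of cell state moved from 4h on. Of 4 trophoblast markers tested, 2 were higher than at 0h at 4h, 3 at 8h and 2 at 24h. The shares of all genes called higher were 1.49% at 4h, 3.12% at 8h and 10.8% at 24h. Cdx2 was higher by 5.83, 5.69 and 4.54 at these times, and Hand1 by 1.87, 2.93 and 4.64. Cdx2 was well above background on 7 arrays and Hand1 on 12. Of the 5 listed trophoblast markers, 2 were so on both 0h arrays, and 4 on both arrays at 4h, 8h and 24h. Cdx2 was not so on both 0h arrays, and its changes are measured values, not bounds. The 5 listed trophoblast markers summed, as linear signal in units of the array's 75th percentile, to 0.385 to 0.598 at 0h, 1.61 to 2.22 at 4h, 1.29 to 2.31 at 8h and 1.19 to 1.92 at 24h. Of the 8 stem cell markers, 0 were called at 4h or 8h (1 and 2 at an unadjusted p under 0.05), and at 24h 4 were lower and 1 was higher than at 0h. Nanog (-4.63), Klf4 (-3.46) and Zfp42 (-1.30), with Esrrb, were the lower ones, and Utf1 (1.78) was the higher one. At 24h 12.9% of all genes were called lower and 10.8% higher. The 8 stem cell markers summed to 311 to 351 at 24h, against 397 to 490 at 0h, and the 5 primitive endoderm markers to 1.22 to 3.24 at 24h, against 0.377 to 0.383 at 0h. Gata6, Pdgfra and Mesp1 were also higher at 24h. Pdgfra was well above background on 2 arrays, Mesp1 on 4, Gata6 on 15, and Elf5 and Mixl1 on 0. Pdgfra and Mesp1 were tested only through the few arrays where they were well above background. Their being higher is therefore not independent of how genes were chosen for testing, and their changes are measured values, not bounds. Of the 5 primitive endoderm markers, 2 were called higher at 24h and 3 were not called, and 3 of the 5 changes lay above 0. Among the 4 trophoblast markers tested, 3 changes lay above 0 at 24h. The part of these changes in the 4h to 24h levels of the Sprouty and Spred genes was not tested.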

How the data were processed

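Total RNA was hybridised in 1 colour to 16 Agilent mouse arrays and read with Agilent Feature Extraction 11.0.1.1, per the file headers. The dye in the labels is Cy5, but the scanner files hold the green channel. The authors deposited spot intensity values that the scanner software had corrected for background, per the file headers, and a value table of the same intensities with 1 column per sample. Each array was matched to its column (100% of spots equal within 0.6%, next best column at most 4.99%), and samples follow the column headings. Titles and time points were used where the 4h descriptions speak of minutes.

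From these, control and outlier spots were left out (147 to 240 outliers per array, 0 at the members, none saturated), and spots of the same probe were averaged as log2 of the deposited processed intensity minus the 75th percentile of the array. Of 55681 probes, 27656 had 1 gene through RefSeq names (GRCm38.p6), 28025 none and 0 several. The brightest probe stood for each gene, and levels of different genes were not compared. limma 3.58.1 in R 4.3.3 fitted 1 mean per group to the 16 arrays together (residual degrees of freedom 8), with Benjamini-Hochberg adjustment over 15659 genes and a threshold of 0.05. The code was tested on simulated data.

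Same-numbered replicates share a slide, per the file headers, and their deviations from the group means correlated at 0.329 to 0.659 (median 0.528) in 28 of 28 pairs of groups, so the block is given where it changed a call. Alternatives were median centring, normexp (offset 50, on the median signals the files hold) with quantile normalization, quantile normalization alone, the mean of all probes, outlier spots kept, no filter, only the groups compared, the block, the attached record and leaving out each array. The 6 genes were always named, and of the other lists the 4 largest called changes or those a sentence needed. From the list of pathway tiers, 1 gene is not reported here. Members and lists were chosen with earlier results of these data known.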

Additional observations from a re-analysis of the deposited data

Results flagged for a closer look

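Signals outside the probes used for the report were seen at Spred1, which has 2 further named probes. Against 0h, the probe that was well above background on all 16 arrays was higher by 2.38 at 4h, 2.27 at 8h and 2.81 at 24h on the log2 scale. A probe for another transcript, well above background on 9 of the 16 arrays, was higher by 2.06 at 4h, 2.28 at 8h and 2.35 at 24h. All 6 changes passed limma's test, and the brightest probe stood at 2.21, 1.97 and 2.59 at these times. The 3 probes read RNA of the same gene on the same arrays and are not independent of each other.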

How the results depend on the processing

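The members called numbered 2 for 0h against DMSO, 0 at 30m and 1h, 1 at 2h, 4 at 4h, 4 at 8h and 5 at 24h against 0h, 0 between neighbouring times, 7 against DMSO and 4 in the F test. Centring on the array median gave 2 at 4h, 2 at 8h and 4 against DMSO, moved the median change of all genes by -0.14 at 2h and -0.09 at 24h, and split the calls over all genes into 228 higher and 33 lower for 0h against DMSO (347 and 201 without it) and 69 higher and 35 lower at 4h (233 and 266). At 8h median centring called 1.6% of all genes higher, against 3.12% without it. No filter on dim probes gave 2 at 4h, where 0.701% of all genes were called higher, against 1.49% with the filter. It also lost Spred1 at 8h (adjusted p = 0.0627) and Spry4 at 4h against DMSO (0.0580). Normexp gave 1 between neighbouring times, gained Spry2 for 0h against DMSO (adjusted p = 0.0369) and lost Spred3 at 2h against DMSO (0.0760), and quantile normalization alone lost Spry4 at 4h against DMSO (0.0744). A fit of only the groups compared gave 0 for 0h against DMSO, 0 at 2h, 0 at 4h, 0 at 8h and 4 at 24h, with fewer samples behind each estimate of the spread. Over all genes it also called 0 in the first 4 of these, and it called 5.14% higher at 24h. The replicate block gave 5 for 0h against DMSO, 2 at 2h, 3 between neighbouring times and 17 against DMSO, and its effect on single calls stands with the results. Leaving out 1 array at a time gave 2 to 2 for 0h against DMSO, 1 to 1 at 2h, 1 to 4 at 4h, 2 to 4 at 8h, 4 to 5 at 24h, 5 to 7 against DMSO and 4 to 4 in the F test.

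With samples as attached to the scanner files, Spred3 was not tested and 0 of the other 5 members were called in any comparison (3.4% of all genes were called higher at 2h and 1.96% at 24h). Of the changes of these 5 members called under the column headings, 10 turned sign: Spred1 at 4h (-0.89), 8h (-1.02) and 24h (-0.63), Spry2 at 4h (-0.66) and 8h (-0.55), Spry4 at 4h (-0.44) and 8h (-0.93) and Spry1 at 24h (-0.16) against 0h, and Spry4 at 4h (-1.57) and 24h (-0.62) against DMSO. The other 6 kept their sign and lost their call. Sign turns among changes that were not called were not counted. Under the other alternatives 0 called changes turned sign among 1230 values, 54 lost their call and 23 gained one. Their cause was not tested. Signal over background limits Spred3 at 0h to 2h to bounds, and its calls are not independent of how genes were chosen for testing.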
